A study of Mus musculus with 3 samples.

Results

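This account follows 34 nuclear genes listed as genes of mitochondrial proteins. They were chosen by symbol for known roles and for lying in parts of the tables with usable values, with earlier results of these data known. Of these, 33 were found under the symbol listed and 1, Pc, under its synonym Pcx, among 37899 gene identifiers with a usable estimate in at least 1 library. RNA sequencing had been done on LSK cells, the blood cell fraction that lacks lineage markers and carries Sca1 and c-Kit and that holds stem cells and multipotent progenitors, sorted at E14.5 from the fetal livers of C57Bl/6 mice. There was 1 library of wild-type (WT) embryos, 1 of embryos hemizygous for a DNMT3B7 transgene and 1 of homozygous embryos, where DNMT3B7 is a shortened DNMT3B, an enzyme that methylates DNA. Each library pooled the cells of 4 to 5 embryos, and the promoter that drives the transgene is not given in the sources used here. With 1 library per genotype no difference has a replicate check, no test was possible, and every difference below compares libraries, not genotypes.

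Mitochondria keep a small circular genome whose mRNAs encode a few core subunits of the respiratory chain and the ATP synthase, and import their other proteins from the cytosol. The nuclear genes therefore supply the mitochondrial ribosome, the remaining subunits and assembly factors of the respiratory complexes, the import machinery, the enzymes that transcribe, process and translate mitochondrial RNA, the membrane carriers and the enzymes of matrix metabolism. Blood stem cells of adult marrow are known for low reliance on respiration, and their progenitors for a higher one. The cells here are fetal, and their respiration was not measured in these data.

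Levels are given as FPKM, which counts fragments per transcript length and library size, divided by 1 factor of 4245 for all 3 libraries, because the deposited figures summed far above what that unit allows. Usable values were confined to 10 runs of neighbouring genes on 10 chromosomes and to the mitochondrial genome, together 1433 genes, since elsewhere genes that every cell needs were listed at or near 0. Whether names and values in the tables are out of step with each other, outside these runs or anywhere within them, was not tested, so each level rests on the name that the tables give it. By that criterion 32 of the 34 genes could be read, 16 of them on chromosome 16 and 8 on chromosome 19, and all 32 reached a value of 1. Hadha and Hadhb, the subunits of the trifunctional protein of fatty acid oxidation, lay on chromosome 5 beyond the end of its run. Hadha was listed at 0.22 (WT), 0.67 (hemizygous) and 0.27 (homozygous) and Hadhb at 0 in all 3, and neither was compared. Ratios are on the deposited scale unless another is named. Scaling each library to the same sum over the genes compared would raise the log2 ratios by about 0.56 for homozygous versus WT, 0.21 for hemizygous versus WT and 0.36 for homozygous versus hemizygous, so a small negative ratio turns positive there. The genes compared rested on an estimated 2060000 fragments (WT), 1960000 (hemizygous) and 1420000 (homozygous). None of 10 LSK markers fell in a readable run, so the sort could not be checked on them. Of markers of other cells, the erythroid genes Tfrc and Car2 summed to 3480, 3505 and 2799, the B lymphoid genes Igll1, Vpreb1 and Vpreb2 to 517, 400.4 and 192, the stromal genes Col4a1 and Col4a2 to 52.6, 68.1 and 99.3, and the megakaryocyte genes Gp5 and Gp1bb to 22.0, 20.8 and 34.9 in the WT, hemizygous and homozygous library, while the hepatoblast gene Ahsg stood between 3.49 and 3.70. The genes behind a sum did not always move together. Gp5 was highest in the homozygous library, while Gp1bb was lower in both transgenic libraries than in WT. In the hemizygous library Tfrc was higher and Car2 lower than in WT, and both were lower in the homozygous library. Each B lymphoid and stromal gene followed the order of its sum. The part of these cell types in the differences below was not tested. In a bulk sample fewer cells of a type cannot be told apart from less RNA per cell.

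The 32 genes spanned levels from 1.71 to 1179.8 in the WT library, with medians of 143 (WT), 132 (hemizygous) and 136 (homozygous). A level of at least 100 was reached by 21, 21 and 23 of them, against 41.0%, 41.9% and 41.1% of 742 protein-coding nuclear genes that reached 1 in a library, where the median was 70.9, 72.5 and 67.4. In 25 of 32 the highest library was within 1.2 times the lowest, and in 14 within 1.1 times. The same held for 51.1% and 21.7% of the 742 genes, and for 63.5% and 27.8% of the 551 of them with an estimated 100 fragments or more in a library.

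**Figure D1:**
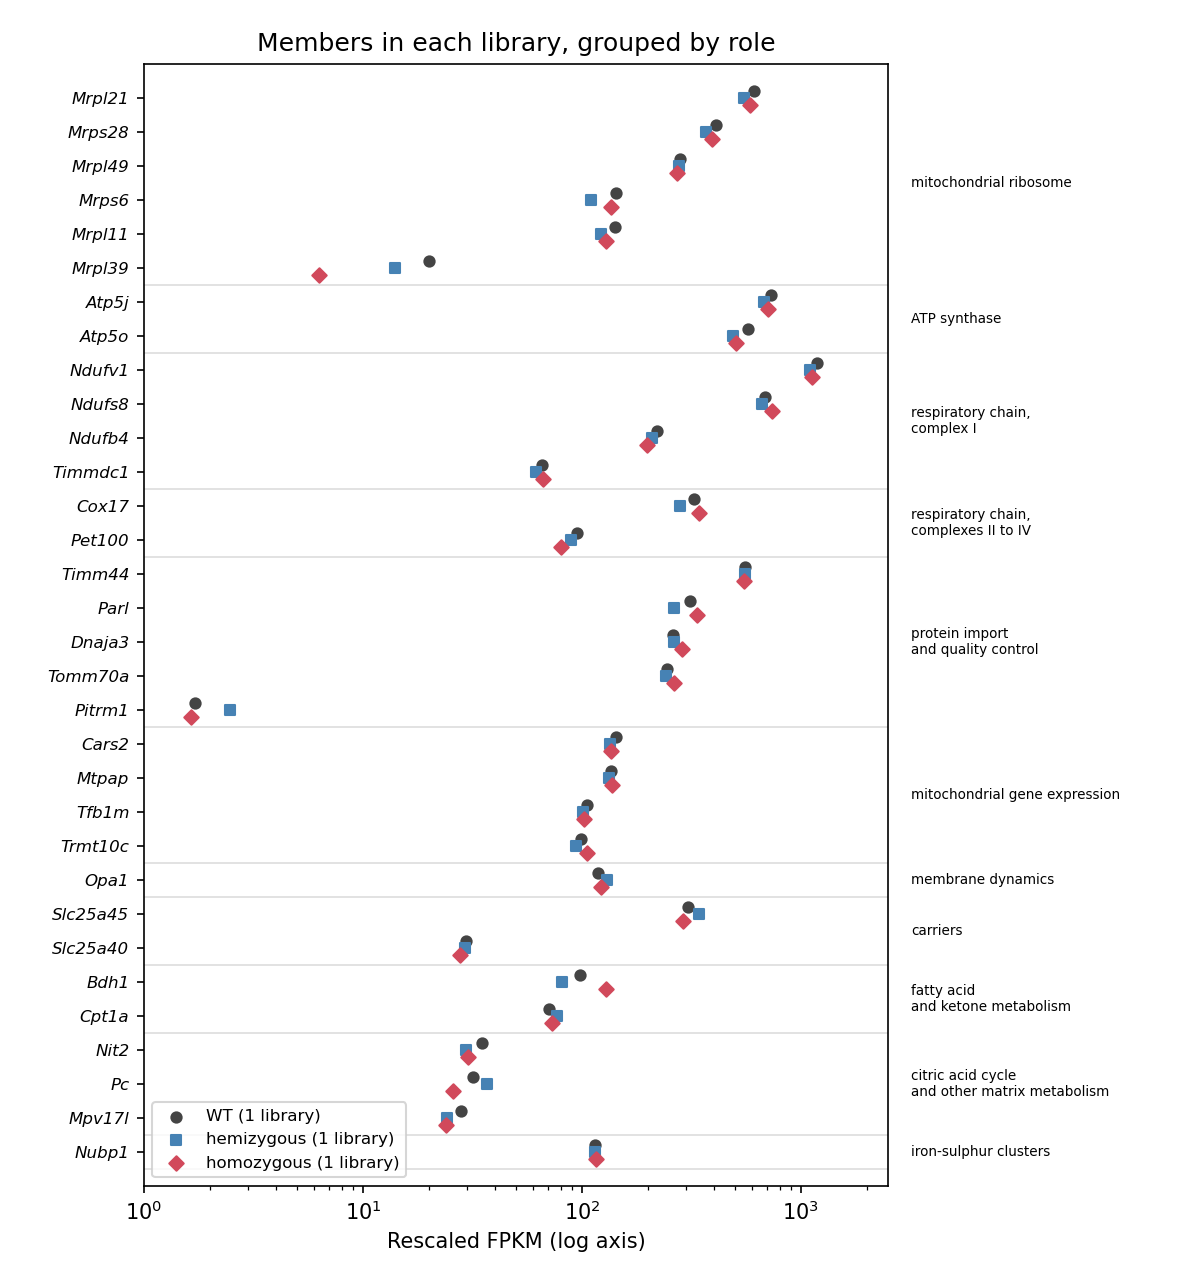
Rescaled FPKM (log axis) of the 32 nuclear genes of mitochondrial proteins that could be read, grouped by role, with 1 point per library. Most genes show 3 points on top of each other, while Mrpl39 runs from 20.0 in the WT to 6.29 in the homozygous library and Bdh1 has its highest point, 129, in the homozygous library; Hadha and Hadhb are not drawn.

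The mitochondrial ribosome, which translates the mRNAs of the mitochondrial genome, held the largest difference among the 32 genes. Mrpl39 (ENSMUSG00000022889, minus strand of chromosome 16), a protein of the large subunit, had a level of 20.0 (WT), 14.1 (hemizygous) and 6.29 (homozygous). It was thus highest in WT and lowest in the homozygous library, on an estimated 97.4, 72.1 and 29.2 fragments. The log2 ratio of value + 1 was -1.53 for homozygous versus WT (95% counting interval -2.05 to -0.999), -0.48 for hemizygous versus WT (-0.89 to -0.07) and -1.05 for homozygous versus hemizygous (-1.59 to -0.50), so that no interval reached 0. The intervals cover counting error only, and the plain ratio of homozygous to WT was 0.315. None of its 50-base transcript stretches occurred in another gene and no annotated exon of another gene overlapped its own.

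The other 5 ribosomal proteins showed no such gap. Mrpl21, of the large subunit, was at 612 (WT), 552 (hemizygous) and 583 (homozygous). Its log2 ratio to WT was -0.07 (-0.19 to 0.05) in the homozygous and -0.15 (-0.27 to -0.03) in the hemizygous library. Mrps28, of the small subunit, was at 408, 369.6 and 394 in the same order. Its ratios to WT were -0.05 (-0.19 to 0.08) and -0.14 (-0.27 to -0.01), again lowest in the hemizygous library. Mrpl49 was level at 281, 277 and 273, and Mrpl11 was at 142, 122 and 128. Mrps6 was at 143, 110.2 and 136, lower in the hemizygous library than in WT by more than counting error (-0.37, interval -0.59 to -0.15). For homozygous versus WT the median over the 6 proteins was -0.07, and the 5 other than Mrpl39 lay between -0.15 and -0.04.

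The promoter of Mrpl39 is printed because this gene differed most, and that of Opa1, described below at nearly equal levels, because it carries the same letters. Each line gives the 250 bases before a RefSeq transcription start in GRCm38.p6, 5′ to 3′ on the strand of the gene. Mrpl39 lies at chr16:84735245-84735494 on the minus strand and Opa1 at chr16:29579084-29579333 on the plus strand. Capitals mark matches to GCGCATGC on either strand, the letters searched for the nuclear respiratory factor NRF1, a transcription factor known for its targets among mitochondrial genes. In both promoters the matches on the 2 strands overlap in 1 palindrome.
Mrpl39: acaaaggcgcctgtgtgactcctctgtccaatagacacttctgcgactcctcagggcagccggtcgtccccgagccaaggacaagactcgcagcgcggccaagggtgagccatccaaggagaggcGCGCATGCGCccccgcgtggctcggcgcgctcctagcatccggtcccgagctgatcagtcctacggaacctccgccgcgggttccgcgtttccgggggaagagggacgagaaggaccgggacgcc
Opa1: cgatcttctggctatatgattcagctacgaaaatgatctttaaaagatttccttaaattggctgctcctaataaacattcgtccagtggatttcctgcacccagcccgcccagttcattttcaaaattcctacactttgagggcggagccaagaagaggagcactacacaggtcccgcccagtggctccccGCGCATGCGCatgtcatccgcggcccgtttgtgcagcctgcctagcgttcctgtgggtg
Among the readable genes with a RefSeq promoter only these 2 held the letters, and they differed in how even they were: the highest library was 3.18 times the lowest for Mrpl39, the widest spread of the 32 genes, and within 1.1 times for Opa1. A match describes the letters and is no evidence of binding.

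The ATP synthase makes ATP from the proton gradient, and its 2 nuclear members were among the most abundant genes. Atp5j, coupling factor 6 of the stalk, was at 729 (WT), 677 (hemizygous) and 711 (homozygous). Its log2 ratio to WT was -0.04 (-0.17 to 0.10) in the homozygous and -0.11 (-0.24 to 0.02) in the hemizygous library, within counting error of 0. Atp5o, the oligomycin sensitivity-conferring subunit, was at 575, 489 and 505. On the deposited scale it was lower in both transgenic libraries than in WT, with -0.19 (-0.32 to -0.06) in the homozygous and -0.24 (-0.36 to -0.11) in the hemizygous library. Of the 50-base stretches of Atp5o, 41.6% occur in other genes, so its level is less certain.

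Complex I feeds electrons from NADH into the respiratory chain, and it held the highest level of the 32 genes. Ndufv1, which binds NADH and the flavin, was at 1179.8 (WT), 1104 (hemizygous) and 1128 (homozygous). Its ratio to WT was -0.06 (-0.14 to 0.01) in the homozygous and -0.10 (-0.17 to -0.02) in the hemizygous library. Ndufs8, a subunit that carries iron-sulphur clusters, was at 689, 668 and 737, with 0.10 (0.01 to 0.18) and -0.05 (-0.13 to 0.04). Ndufs8 was therefore the only complex I gene here whose interval lay above 0 for homozygous versus WT, by a ratio of under 1.2-fold. Ndufb4, an accessory subunit of the membrane arm, was at 221, 210.0 and 199, and 18.3% of its stretches occur in Ndufb4c or other genes. Timmdc1, an assembly factor of complex I, was at 65.7, 61.8 and 66.6.

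Assembly factors of complex IV, cytochrome c oxidase, were read for 2 genes. Cox17, the copper chaperone of the complex, was at 326 (WT), 280.2 (hemizygous) and 342 (homozygous). Its ratio was 0.06 (-0.15 to 0.28) for homozygous versus WT and -0.22 (-0.44 to 0.00) for hemizygous versus WT, and 0.28 (0.06 to 0.51) between the transgenic libraries. Pet100 was at 95.3, 89.2 and 80.3, with -0.24 (-0.66 to 0.17) and -0.10 (-0.49 to 0.30) to WT. It rested on an estimated 101 fragments in WT, and 46.3% of its stretches occur in Pcp2, which overlaps it on the opposite strand, so this gene is uncertain.

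Among genes of protein import and quality control, Tomm70a and Dnaja3 were slightly higher in the homozygous library and Parl was lowest in the hemizygous library. Timm44, which anchors the import motor at the inner membrane, was at 556, 555 and 549 in the WT, hemizygous and homozygous library, with ratios to WT of -0.02 (-0.12 to 0.08) in the homozygous and -0.00 (-0.11 to 0.10) in the hemizygous library. Tomm70a, a receptor of the outer membrane for incoming precursors, was at 244, 243 and 265, and Dnaja3, a matrix co-chaperone, at 262, 263 and 288. Both were higher in the homozygous than in the WT library beyond counting error, by 0.12 (0.05 to 0.18) for Tomm70a and 0.14 (0.03 to 0.24) for Dnaja3. Parl, a rhomboid protease of the inner membrane, was at 312, 263 and 334. Its hemizygous value lay below both others, with -0.25 (-0.39 to -0.10) for hemizygous versus WT and 0.34 (0.20 to 0.49) for homozygous versus hemizygous. Its ratio of homozygous to WT, 0.10 (-0.04 to 0.24), was within counting error of 0. Pitrm1, a matrix peptidase, was at 1.71, 2.46 and 1.64, which stood for an estimated 3.01, 4.56 and 2.74 fragments and allows no reading of its differences.

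The 4 genes listed here for the expression of the mitochondrial genome were even across libraries, unlike Yars2 of the same role, described below with the wider list. Cars2, the mitochondrial cysteinyl-tRNA synthetase, was at 144 (WT), 134 (hemizygous) and 135 (homozygous), with ratios to WT of -0.09 (-0.25 to 0.08) in the homozygous and -0.10 (-0.27 to 0.06) in the hemizygous library. Mtpap, the mitochondrial poly(A) polymerase, was at 135, 133 and 137, with 0.01 (-0.10 to 0.13) and -0.03 (-0.14 to 0.09). Tfb1m, which methylates the small ribosomal RNA, was at 105, 101 and 102. Trmt10c, a subunit of mitochondrial RNase P, was at 98.8, 94.1 and 106, and its only interval clear of 0 was that of homozygous versus hemizygous (0.17, interval 0.05 to 0.28). The widest spread of the 4 was that of Trmt10c, whose highest library was 1.12 times its lowest.

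Opa1, the GTPase of inner membrane fusion and cristae, was at 119 (WT), 130.1 (hemizygous) and 122 (homozygous). It was highest in the hemizygous library, with a ratio to WT of 0.13 (0.03 to 0.23), against 0.04 (-0.07 to 0.14) in the homozygous library. Slc25a45, a gene of the mitochondrial carrier family, was also highest in the hemizygous library, at 304, 344 and 289. Its ratio to WT was 0.18 (0.09 to 0.26) in the hemizygous and -0.08 (-0.16 to 0.01) in the homozygous library, and -0.25 (-0.34 to -0.16) between the transgenic libraries. Slc25a40, another carrier of the inner membrane, was at 29.7, 29.3 and 27.8, with -0.02 (-0.24 to 0.21) and -0.09 (-0.32 to 0.15) in the same order.

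Ketone and fatty acid metabolism held the gene that was higher in the homozygous library by the most. Bdh1 (plus strand of chromosome 16), the dehydrogenase that interconverts beta-hydroxybutyrate and acetoacetate, had a level of 97.6 (WT), 81.3 (hemizygous) and 129 (homozygous). The hemizygous library was lowest and the homozygous library highest, on an estimated 509, 447 and 642 fragments. The log2 ratio was 0.40 (0.23 to 0.56) for homozygous versus WT, -0.26 (-0.44 to -0.08) for hemizygous versus WT and 0.66 (0.49 to 0.83) for homozygous versus hemizygous. Of its stretches, 11.1% occur in Gm15743, an antisense gene with a value of 0, 2.27 and 0.15 in the 3 libraries, far below that of Bdh1. Cpt1a, which loads long-chain fatty acids for entry into mitochondria, was at 70.8, 77.3 and 72.8, with 0.04 (-0.24 to 0.31) and 0.12 (-0.14 to 0.39) to WT in the homozygous and hemizygous library.

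The promoters of Bdh1 are shown because it was the gene with the largest positive ratio and because RefSeq gives it 2 starts. Both are on the plus strand of GRCm38.p6, the upstream window at chr16:31422047-31422296 and the downstream window at chr16:31428503-31428752, and neither held any of the letters searched, so no base is in capitals.
Bdh1, upstream start: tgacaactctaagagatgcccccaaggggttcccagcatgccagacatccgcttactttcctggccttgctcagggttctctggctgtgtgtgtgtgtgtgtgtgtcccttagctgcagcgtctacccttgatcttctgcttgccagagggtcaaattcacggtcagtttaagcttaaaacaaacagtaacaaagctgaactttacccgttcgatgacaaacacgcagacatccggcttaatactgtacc
Bdh1, downstream start: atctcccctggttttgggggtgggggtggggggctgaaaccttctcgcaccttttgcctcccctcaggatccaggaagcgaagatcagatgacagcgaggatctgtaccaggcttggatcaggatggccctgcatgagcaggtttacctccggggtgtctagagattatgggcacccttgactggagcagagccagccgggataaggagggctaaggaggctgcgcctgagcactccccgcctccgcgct
The GC content was 49.6% in the upstream and 60.8% in the downstream window, against 67.2% for Mrpl39. The deposited values are per gene, so the use of either start was not analysed here.

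The remaining genes serve matrix metabolism and iron-sulphur clusters. Pc, pyruvate carboxylase, which refills the citric acid cycle, was at 31.9 (WT), 36.9 (hemizygous) and 25.7 (homozygous). Its ratio to WT was -0.30 (-0.88 to 0.28) in the homozygous and 0.20 (-0.32 to 0.72) in the hemizygous library, on an estimated 50.7, 61.8 and 38.9 fragments, so the spread was within counting error. Nit2, an omega-amidase, was at 34.9, 29.5 and 30.3, with -0.20 (-0.66 to 0.27) and -0.23 (-0.69 to 0.22). Mpv17l, a membrane protein related to Mpv17, was at 28.0, 24.2 and 23.9. Nubp1, a scaffold protein of cytosolic iron-sulphur cluster assembly, was at 114.7, 114.9 and 115.5, with 0.01 (-0.23 to 0.25) and 0.00 (-0.23 to 0.23), and 27.9% of its stretches occur in Tvp23a, so its level is less certain. Nubp1 is counted among the 32 genes as listed, although that role lies in the cytosol.

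**Figure D2:**
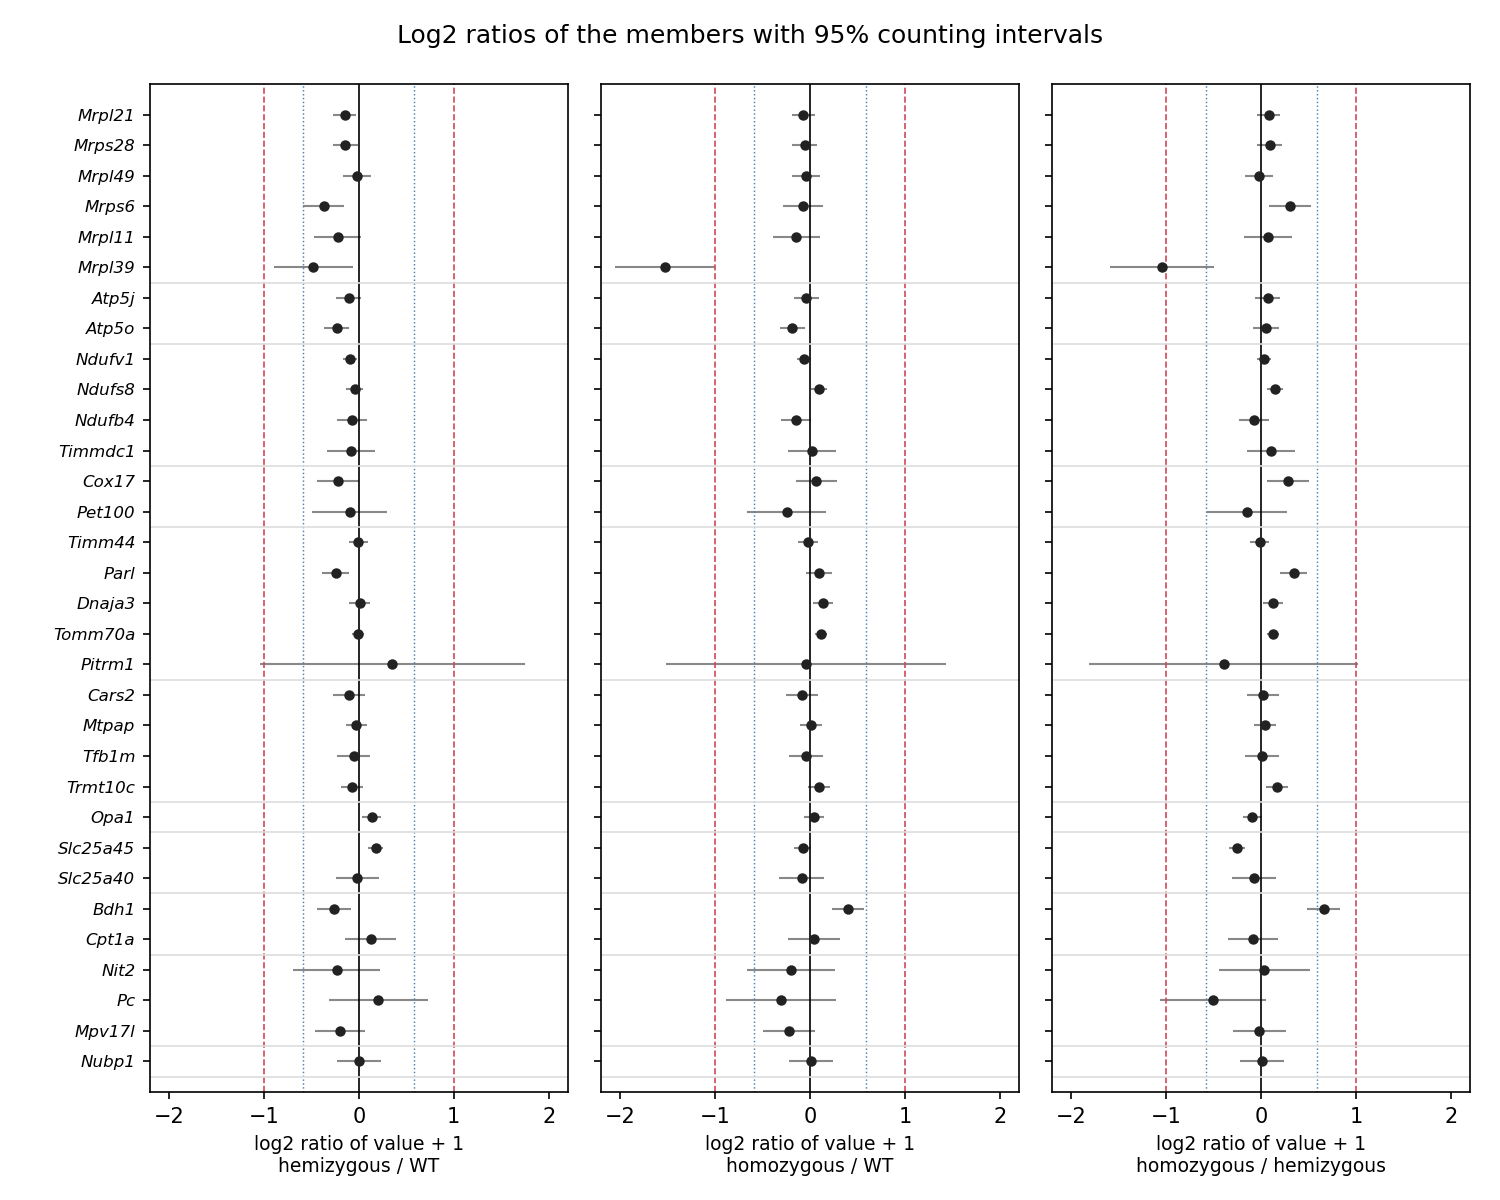
Log2 ratio of value + 1 for each of the 32 genes in the 3 comparisons, with 95% counting intervals as bars, dotted lines at 1.5-fold and dashed lines at 2-fold. Mrpl39 passes the 2-fold line for homozygous versus WT (-1.53) and for homozygous versus hemizygous (-1.05), Bdh1 passes the 1.5-fold line in the latter (0.66), and the bars of Pitrm1, at about 3 fragments, are the widest.

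The homozygous library was set against the WT library. Of the 32 genes, 1 (Mrpl39, lower) passed 2-fold and the same 1 passed 1.5-fold, against a background of 4.36% and 12.1% of the 940 genes compared. The counting interval was clear of 0 for 6 of 32, above it for Ndufs8, Tomm70a, Dnaja3 and Bdh1 and below it for Mrpl39 and Atp5o. Among all genes it was clear of 0 for 33.5%, above it for 134 and below it for 181. The median log2 ratio of the 32 genes was -0.04, as was that of all genes compared. Below 0 lay 20 of 32, against 528 of the 940 genes. The sum scaling put 31 of 32 above 0, with a median of 0.51 against 0.49 for all genes compared. Within 1.2-fold lay 29 of 32, against 66.6% of all genes compared and 77.6% of the 625 genes with an estimated 100 fragments or more in either library. Of those 625 genes, 2 were 2-fold higher and 6 lower, and 13 were 1.5-fold higher and 24 lower. The interval was clear of 0 for 44.3% of them.

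The hemizygous library was set against the WT library in the same way. None of the 32 genes passed 2-fold or 1.5-fold, against 2.77% and 7.99% of 939 genes compared. The interval was clear of 0 for 10 of 32, of which 8 were lower in the hemizygous library (Mrpl39, Mrps6, Mrpl21, Mrps28, Atp5o, Ndufv1, Parl and Bdh1) and 2 higher (Opa1 and Slc25a45). Among all genes it was clear of 0 for 32.1%, with 138 lower and 163 higher in the hemizygous library. The median was -0.08, against 0.02 for all genes compared, and 25 of 32 lay below 0, against 432 of the 939 genes. Under the sum scaling the median was 0.12, against 0.22 for all genes, and 9 of 32 lay below 0. A median-ratio scaling gave -0.10 against -0.00, with 27 of 32 below 0. Under either scaling only the median was taken over all genes, and not the count below 0. Within 1.2-fold lay 29 of 32, against 69.5% of all genes compared and 81.8% of the 632 with 100 fragments or more. Of those 632 genes, none passed 2-fold, and 8 were 1.5-fold higher and 3 lower. The interval was clear of 0 for 42.6% of them.

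The homozygous library was also set against the hemizygous library. Past 2-fold was 1 of 32 (Mrpl39, lower) and past 1.5-fold were 2 (Mrpl39, lower, and Bdh1, higher), against 4.54% and 11.5% of 947 genes. The interval was clear of 0 for 10 of 32, 8 higher in the homozygous library and 2 lower. Among all genes it was clear of 0 for 30.2%, with 89 higher and 197 lower in the homozygous library. The median was 0.03, against -0.05 for all genes compared. Within 1.2-fold lay 25 of 32 (78.1%), against 65.5% of all genes compared and 78.3% of the 630 with 100 fragments or more, a share near the latter background. Of those 630 genes, 0 were 2-fold higher and 3 lower, and 6 were 1.5-fold higher and 14 lower. The interval was clear of 0 for 38.1% of them. The ratio of Mrpl39, -1.05, fell short of 2-fold under median-ratio scaling (-0.99), under the sum scaling (-0.73) and with a pseudocount of 5 (-0.76). The 3 comparisons share libraries and are not independent of each other.

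**Figure D3:**
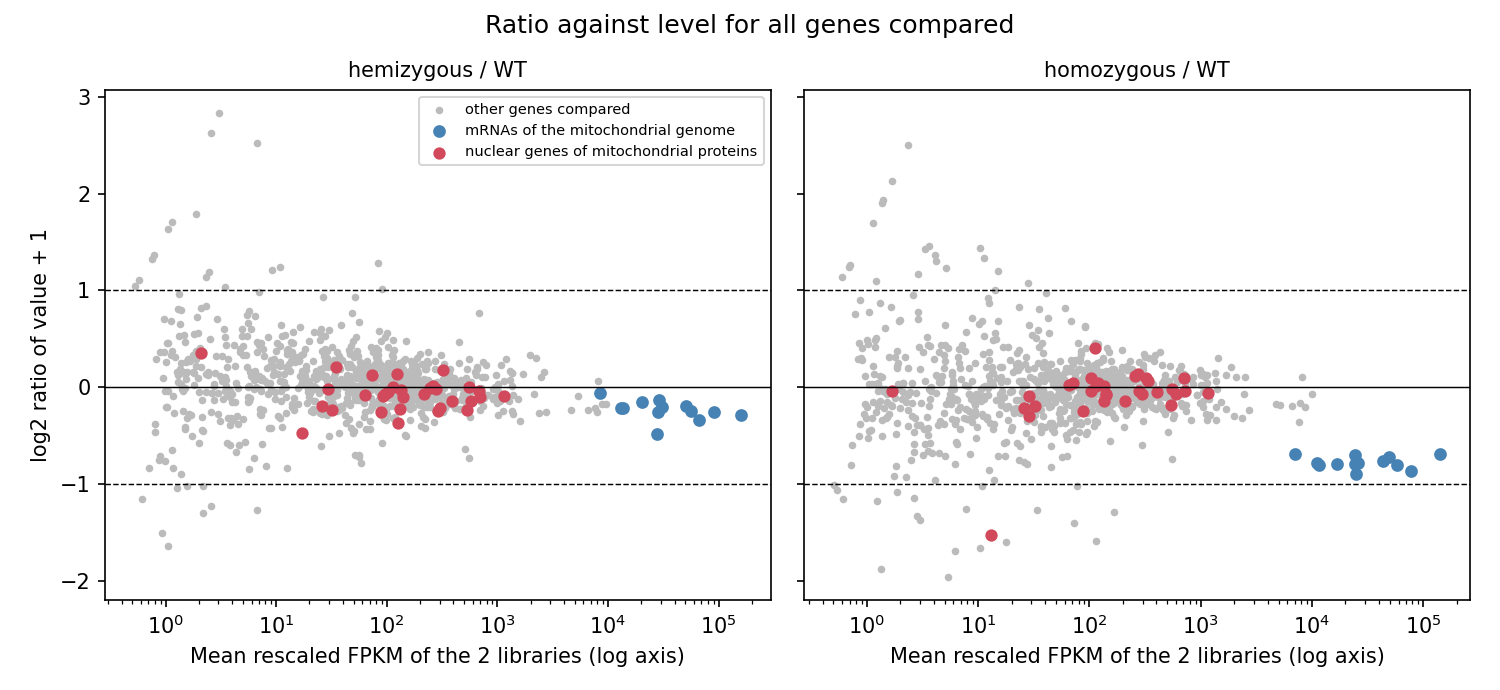
Log2 ratio of value + 1 against the mean rescaled FPKM of the 2 libraries (log axis) for all genes compared, for hemizygous versus WT and homozygous versus WT; red points are the 32 nuclear genes, blue points the 13 mRNAs of the mitochondrial genome, dashed lines 2-fold. The red points lie near 0 except Mrpl39 at -1.53 in the homozygous panel, and the blue points lie together at a median of -0.79 there and -0.22 in the hemizygous panel.

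The order of the 3 libraries was not even among the 32 genes. The hemizygous library was the lowest for 18, the homozygous library for 10 and the WT library for 4. Among the 742 protein-coding nuclear genes that reached 1, the hemizygous library was lowest for 24.5%, the homozygous for 41.6% and the WT library for 33.6%. Under the sum scaling the hemizygous library was lowest for 8 of 32 genes, against 12.1% of the 742. Leaving the mitochondrial genome out of that sum gave 16 of 32, against 22.1%, and median-ratio scaling 23 of 32, against 31.8%. The hemizygous library lay below both others beyond counting error for Mrps6, Parl and Bdh1, 3 of 32 genes against 3.33% of 931. It lay above both others for Slc25a45, 1 of 32 against 7.84%.

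The mitochondrial genome encodes partner subunits of the same complexes, which gives a comparison of both genomes within a complex. The 7 complex I mRNAs of the mitochondrial genome stood at 71.7% to 95.7% of their WT level in the hemizygous and at 53.5% to 62.0% in the homozygous library. The nuclear subunits Ndufs8, Ndufv1 and Ndufb4 stood at 93.6% to 96.9% and at 90.3% to 107%. For the ATP synthase, mt-Atp6 and mt-Atp8 stood at 83.9% and 82.0% in the hemizygous and 54.7% and 61.8% in the homozygous library, against 92.8% and 97.4% for Atp5j and 84.9% and 87.8% for Atp5o. In the homozygous library the ranges of the 2 genomes did not overlap in either complex. In the hemizygous library they overlapped in complex I and lay next to each other in the ATP synthase. For homozygous versus WT, 32 of the 737 protein-coding nuclear genes compared were at least 1.5-fold lower. Most nuclear genes therefore also lay above the mitochondrial range in the homozygous library, and the gap is not particular to these subunits.

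**Figure D4:**
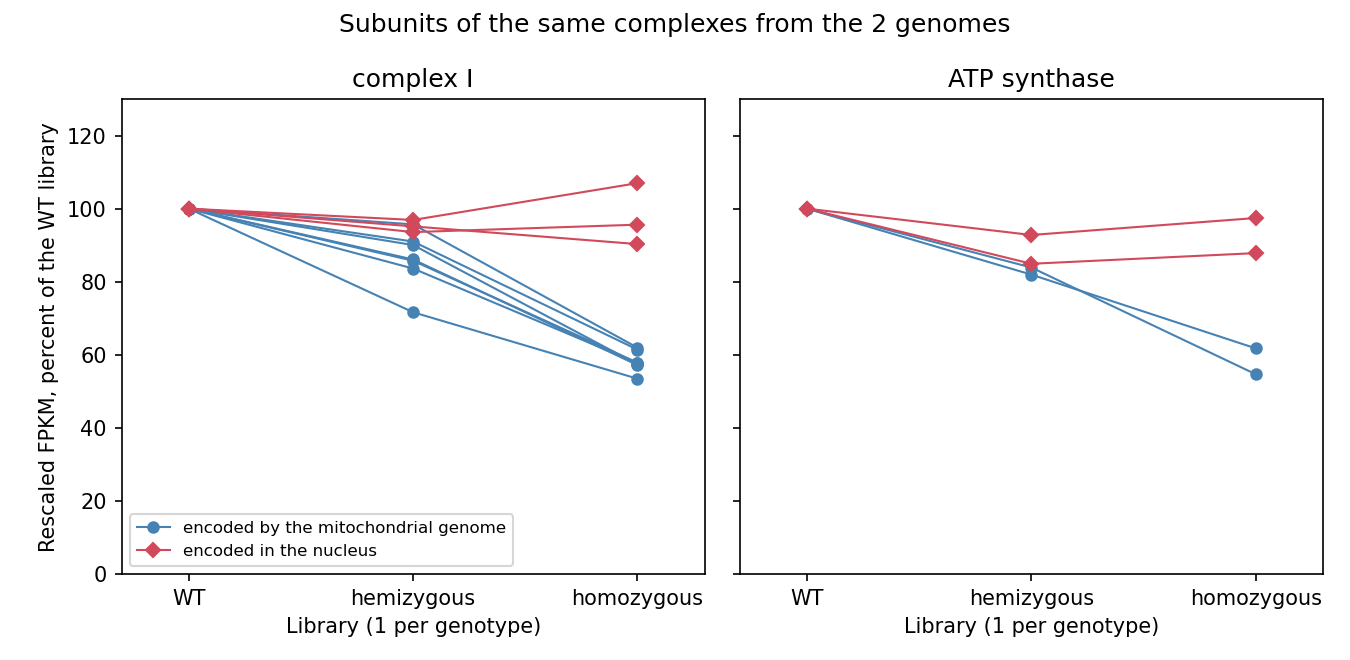
Rescaled FPKM as percent of the WT library for complex I and ATP synthase subunits encoded by the mitochondrial genome (blue circles) and in the nucleus (red diamonds), with lines joining the 3 libraries of a gene. In the homozygous library the blue points lie between 53.5% and 62.0% and the red points between 87.8% and 107%.

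Over all 13 mRNAs of the mitochondrial genome the median log2 ratio to WT was -0.79 in the homozygous and -0.22 in the hemizygous library, so the 32 nuclear genes stood above them by 0.75 and 0.14. The medians of all protein-coding nuclear genes compared were -0.04 and 0.03. They also stood above the mitochondrial mRNAs, so the gap is not particular to the 32 genes. A scaling shifts all of these groups alike. Under the sum scaling, the homozygous versus WT medians were 0.51 for the 32 genes and -0.23 for the mitochondrial mRNAs. The mitochondrial mRNAs are a large part of that sum. Whether the 32 genes were level or higher in the homozygous library per cell cannot be read from these values. Mrpl39, lower than the mitochondrial mRNAs at -1.53, was the exception among the 32 genes.

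Regulators of mitochondrial genes were read for 2. Gabpa, a subunit of the ETS factor NRF-2 that activates many such genes, was at 178 (WT), 226 (hemizygous) and 198 (homozygous), with ratios to WT of 0.34 (0.17 to 0.52) in the hemizygous and 0.16 (-0.03 to 0.34) in the homozygous library. It starts head to head with Atp5j, and the exons of Gabpa cover 12.7% of those of Atp5j. Nrip1, a corepressor of nuclear receptors that restrains oxidative genes, was at 80.2, 119 and 106. Its ratios to WT were 0.56 (0.41 to 0.71) and 0.40 (0.24 to 0.56). Both were highest in the hemizygous library on the deposited scale.

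RefSeq promoters were matched for 28 of the 32 genes, 31 windows in all, and not for Cox17, Mpv17l, Mrps28 and Mtpap. The ETS letters CCGGAAG, read on both strands, were in 7 of 31 (22.6%), against 6.91% of 32851 promoters of the same length. They belong to Atp5j, Cars2, Parl, Pet100, Timmdc1, Tomm70a and Trmt10c. The NRF1 letters GCGCATGC were in 6.45% against 2.26%, and the letters AAGATGGC searched for YY1, a zinc finger factor, in 1 window, that of Atp5j (3.23% against 1.56%). A share that rests on 1 or 2 windows is near the background. The windows of these genes had a median GC content of 58.0% and 15 CpG, against 52.4% and 6 over all promoters, and the part of base composition in these shares was not tested. The 2 windows below show the densest case and the gene with 2 kinds of match. Timmdc1 lies at chr16:38522664-38522913 and Atp5j at chr16:84834977-84835226, both on the minus strand. Capitals mark the ETS letters on either strand and, in Atp5j, the letters AAGATGGC ahead of them.
Timmdc1: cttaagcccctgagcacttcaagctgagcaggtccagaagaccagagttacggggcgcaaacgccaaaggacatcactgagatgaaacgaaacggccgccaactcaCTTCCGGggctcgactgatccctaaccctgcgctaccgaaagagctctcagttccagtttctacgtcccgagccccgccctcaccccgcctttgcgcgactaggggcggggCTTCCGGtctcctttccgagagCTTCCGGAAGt
Atp5j: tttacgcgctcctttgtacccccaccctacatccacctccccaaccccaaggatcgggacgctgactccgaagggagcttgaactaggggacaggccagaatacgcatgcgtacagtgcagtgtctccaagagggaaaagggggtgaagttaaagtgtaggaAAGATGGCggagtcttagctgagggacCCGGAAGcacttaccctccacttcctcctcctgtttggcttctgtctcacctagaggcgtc
In Timmdc1 there are 4 matches, of which the 2 nearest the start overlap on opposite strands. Neither gene passed 1.5-fold in any comparison, like most genes compared.

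Genes that start within 1000 bases on the opposite strand gave a view of the neighbourhood. Slc25a40 shares its start region with Dbf4, which activates the replication kinase Cdc7 and was level at 360.3, 368 and 362 in the WT, hemizygous and homozygous library. Pet100 shares one with Xab2, a splicing and repair factor, at 315, 333 and 320.5. Mrpl49 lies opposite Fau, which encodes a fusion of a ubiquitin-like protein and a ribosomal protein, at 9340, 8269 and 8107, above every one of the 32 genes. Mrpl21 lies opposite the helicase gene Ighmbp2, at 41.8, 41.7 and 44.7, and Mpv17l opposite Pdxdc1, at 248, 219.8 and 232. None of these 5 neighbours differed by 1.5-fold in any comparison. Of all genes compared, 12.1% did for homozygous versus WT, 7.99% for hemizygous versus WT and 11.5% for homozygous versus hemizygous. With 5 genes, that is near the background. Other readable neighbours of this kind were Gabpa, described above, and antisense genes of Nit2, at 9.09, 8.90 and 7.05, and of Atp5o, below 1 in each library.

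A wider list of 406 nuclear genes of mitochondrial proteins, of which 397 were in the tables, had 39 genes in the readable runs, the 32 described and 7 others. None of the 7 passed 1.5-fold in any comparison. Of all genes compared, 12.1% did for homozygous versus WT, 7.99% for hemizygous versus WT and 11.5% for homozygous versus hemizygous. With 7 genes, a count of 0 is near these shares. Yars2, the mitochondrial tyrosyl-tRNA synthetase, was at 94.6, 104 and 130.4 and was higher in the homozygous than in the WT library by 0.46 (0.29 to 0.63). Txnrd2, the mitochondrial thioredoxin reductase, was at 98.7, 124 and 131, with 0.41 (0.20 to 0.62) in the homozygous and 0.33 (0.12 to 0.54) in the hemizygous library. The ribosomal protein gene Mrpl40 was at 325, 287 and 315 and was lower in the hemizygous than in the WT library beyond counting error (-0.18, interval -0.33 to -0.03). The fission GTPase gene Dnm1l was at 141, 140.4 and 142, the import motor gene Pam16 at 499, 476 and 485 and the citrate carrier gene Slc25a1 at 383, 388 and 363, with every interval reaching 0. Cpox, of haem synthesis, was at 442, 442 and 409, with -0.11 for homozygous versus WT and versus hemizygous, both intervals ending just below 0. Outside the runs 358 listed genes had a median value of 0.06, 237 stayed below 1 and 150 were at 0 in all 3 libraries, against a median of 138 in the runs, and these were not compared.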

How the data were processed

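The authors deposited FPKM for each gene along with an estimation status, per the file headers. The submitters' processing notes name mm9 as the build and TopHat2, Bowtie2 and Cufflinks as tools, all without a version. Not given in the sources used here are the annotation, the strand setting and the fragment length. Sums of the deposited FPKM exceed what the unit allows, so all values were divided by 4245, which leaves ratios as deposited. Gene types, lengths and order came from GENCODE M21 (GRCm38), in which 36216 of 37899 identifiers were found.

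The end of a readable run was found per chromosome as the most likely point where the share of high protein-coding genes (deposited FPKM averaging at least 200000) drops. A run was kept with a log likelihood gain of at least 5 and at least 25% high genes before its end. The highest row of a gene with status OK was used. Genes needed a value of 1 in either library of a comparison, and ratios are log2 of value + 1, a scale that shrinks differences of low genes. Low values were whole multiples of 1 unit, within 0.05, for 69.8% to 72.7% of 765 to 841 values per library. That unit was taken as 1 fragment, given the median length of a gene's transcripts and fragments taken to be 200 bases long. From these came the 95% counting intervals (delta method), which cover counting error only. The scripts were tested on simulated data.

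All 34 genes are named. Log2 ratios with intervals are given for genes past 1.5-fold and for the highest 2 of each role, and further ones were chosen after their values were seen. The genes, lists, motifs and settings were chosen with earlier results of these data known. Alternatives covered the pseudocount, 3 scalings, the filter, the runs, the row used and the transcript length. Python packages were pandas 2.3.3, numpy 2.4.6 and matplotlib 3.10.9.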

Additional observations from a re-analysis of the deposited data

How the results depend on the processing

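Of 75 alternative values for counts and medians of the 32 genes, 66 stayed within the limits set and 9 moved. Scaling each library to the same sum over the genes compared gave 10 genes past 1.5-fold and a median log2 ratio of 0.51 for homozygous versus WT, a median of 0.12 for hemizygous versus WT, and 5 genes past 1.5-fold with a median of 0.38 for homozygous versus hemizygous. Over all genes compared that scaling changed the split at 1.5-fold for homozygous versus WT from 48 higher and 66 lower to 346 and 19, for hemizygous versus WT from 45 and 30 to 86 and 18, and for homozygous versus hemizygous from 38 and 71 to 110 and 40. Under it Bdh1 reached 0.95 for homozygous versus WT and 1.01 for homozygous versus hemizygous, and Mrpl39 -1.02 and -0.73. A pseudocount of 5 left 0 genes past 2-fold for homozygous versus hemizygous, as did median-ratio scaling. With the longest transcript, which gives more fragments, the interval was clear of 0 for 12 genes for homozygous versus WT and 16 for hemizygous versus WT. Summing the rows of a gene changed nothing, since no gene compared had a further row above 0. Mrpl39 stayed past 2-fold for homozygous versus WT under each pseudocount, scaling and filter tried. Without the restriction to runs, 9.19% of 5583 protein-coding genes passed 2-fold for homozygous versus WT, 10.1% of 5926 for hemizygous versus WT and 10.5% of 5959 for homozygous versus hemizygous. With runs fitted to genes of at least 1000000 deposited FPKM the counts were 4 of 162, 5 of 161 and 6 of 163. No paired analysis was possible because each genotype has 1 library. Fewer than 100 estimated fragments in WT limited Mrpl39, Nit2, Pc and Pitrm1.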
